A study of Mus musculus with 2 samples.

Results

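Cluster 3 was a group of spots in a spatial transcriptome of mouse tongue, taken from the H3K36M section and rich in transcripts of differentiated squamous epithelium. Its spots were those that the authors' clustering placed in cluster 3, and its members were all 298 genes listed for that section, of 879 genes listed for either section of the series. Every listed gene had at least 2 transcript molecules in cluster 3. The cluster held 193928 of the 570807 molecules assigned to the 4 clusters of the section (34.0%), counted by their unique molecular identifiers (UMIs). The section came from a mouse of genotype Krt14-Cre(+); LSL-H3K36M. In such a mouse the promoter of the keratin gene Krt14 drives Cre, which removes a stop cassette and so switches on the mutant histone H3K36M in tissue that expresses Krt14. The second section came from a Krt14-Cre(-); LSL-H3K36M mouse, called WT by the labels, which carried the same silent allele. Both animals had been treated with 4NQO, a carcinogen that acts on the oral epithelium; the sources used here give no age, dose or time. With 1 section per genotype there was no spread between animals, and no test was made.

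The upper side of the tongue is covered by a stratified squamous epithelium folded into papillae. Basal cells with keratins 5, 14 and 15 divide at its base, and their daughters move up, switch to keratins 4 and 13 and, in the filiform papillae, to keratins of the hair type. In the last layers loricrin, repetin, trichohyalin and small proline-rich proteins are joined by transglutaminases into the cornified envelope, lipids are added around it, and proteases cut the junctions so that dead cells are shed. H3K36M is a histone H3 in which lysine 36 is replaced by methionine, and it blocks the enzymes that methylate this residue.

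A spot covers a small area and can hold several cells of different kinds, so that fewer cells of a kind and less RNA per cell cannot be told apart in what follows. Levels are given as a gene's UMIs per 10000 UMIs of its cluster, with 95% intervals in parentheses that cover counting error alone. UMIs count molecules and were not scaled by transcript length. The section was shallow: the deposited metrics gave a median of 763.5 UMIs per spot under tissue, against 4899 in the WT section, and 6.93% of reads in spots under tissue, against 36.2%. For the clustered spots the inferred medians were 1380.5 and 5027, a smaller gap. The other clusters of the section held 17291 (cluster 1), 306551 (cluster 2) and 53037 UMIs (cluster 4), so that cluster 1 gave the least precise values. A gene was listed only if it reached about 7.24 UMIs per 10000 in at least 1 cluster. Of the 298 genes, 202 reached this limit in cluster 3, and 39 reached it in cluster 3 alone, which means that the rule of listing had already put them higher there. The names of the deposited tables call the clusters graph-based, which in this kind of data means groups of spots alike in expression, so that no difference between clusters is a test.

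The markers by which the region was named were all highest in cluster 3. They were chosen with these values known, and are given as a description. Krt76, a keratin of the upper layers of oral epithelium (chromosome 15, 101884351 to 101892920, GRCm38), stood at 7.73 (6.55 to 9.08) in cluster 3, and at 1.16, 0.424 and 0.566 in clusters 1, 2 and 4. The hair-type keratin gene Krt36 (chromosome 11, 100102007 to 100105626) stood at 20.4 (18.4 to 22.5), against 1.74, 1.73 and 0.189. Both were thus near or under 2 UMIs per 10000 outside cluster 3. Its type II counterpart Krt84 (chromosome 15, 101525026 to 101532820) stood at 10.7 (9.27 to 12.2) in cluster 3 and 1.30 in cluster 2. In clusters 1 and 4 Krt84 had 0 UMIs, which allows up to 1.74 and 0.566 UMIs per 10000. Lor, which encodes loricrin, the main protein of the cornified envelope (chromosome 3, 92080271 to 92083142), stood at 101 (96.8 to 106), against 15.04, 25.5 and 5.09. Fetub, which encodes the protease inhibitor fetuin-B (chromosome 16, 22918334 to 22939778), stood at 25.9 (23.7 to 28.3), against 4.05, 3.46 and 1.51. Lor was the marker least confined to the cluster, with 70.1% of its UMIs there, and Krt76 the most, with 89.3%.

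The promoters of 5 genes of this region are shown, chosen among those at least 2-fold higher in cluster 3 than in each other cluster. Each window is the 150 bases before the RefSeq start on GRCm38.p6, read 5′ to 3′ on the strand of the gene. Capitals mark matches to a TATA box (TATAAA) or an AP-1 motif (TGANTCA, with N any base) on either strand.
Lor (chr3:92083143-92083292, - strand): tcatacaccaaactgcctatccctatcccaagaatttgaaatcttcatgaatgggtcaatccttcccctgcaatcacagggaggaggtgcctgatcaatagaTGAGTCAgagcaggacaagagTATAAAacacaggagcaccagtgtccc
Rptn (chr3:93393549-93393698, + strand): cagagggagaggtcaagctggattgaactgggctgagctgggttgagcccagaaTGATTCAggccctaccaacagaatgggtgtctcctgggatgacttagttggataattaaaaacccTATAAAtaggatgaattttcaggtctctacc
Krt76 (chr15:101892921-101893070, - strand): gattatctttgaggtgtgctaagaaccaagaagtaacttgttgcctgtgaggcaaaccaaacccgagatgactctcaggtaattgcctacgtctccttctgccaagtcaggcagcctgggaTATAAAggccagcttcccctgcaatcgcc
Krt36 (chr11:100105627-100105776, - strand): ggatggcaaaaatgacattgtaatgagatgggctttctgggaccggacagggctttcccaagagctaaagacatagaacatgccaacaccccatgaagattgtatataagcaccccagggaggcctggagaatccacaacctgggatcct
Krt84 (chr15:101532821-101532970, - strand): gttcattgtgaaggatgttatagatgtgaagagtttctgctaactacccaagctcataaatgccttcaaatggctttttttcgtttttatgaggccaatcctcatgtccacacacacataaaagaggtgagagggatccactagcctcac
Lor had a TATA match from -27 to -22 and an AP-1 match from -48 to -42, counted from the base before the start as -1. Rptn, which encodes the envelope protein repetin, had a TATA match from -31 to -26 and an AP-1 match from -96 to -90, and Krt76 had a TATA match from -29 to -24. Krt36 and Krt84 had none of these letters in the window shown. Over the 250 bases before the start, TATAAA was present in 9 of the 32 matched promoters of genes at least 2-fold higher in cluster 3 than in each other cluster (28.1%), in 36 of 214 promoters of listed genes (16.8%) and in 3503 of 27018 RefSeq promoters (12.97%). The AP-1 letters were present in 15.6%, 13.6% and 6.87% of the same sets. CACCC was present in 62.5%, 60.3% and 51.3%, and CCAAT in 40.6%, 33.2% and 34.5%. The grainyhead letters AACNNGTT were present in 6.25%, 5.14% and 3.63%, and the KLF letters GGGNGTG in 21.9%, 31.8% and 26.0%. A match is a description of the sequence and not a binding site.

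Keratins and other proteins of the upper epithelial layers made up most of the abundant transcripts of cluster 3. Krt13 and Krt4, the keratin pair of the mucosal surface, were the most abundant genes. Krt13 stood at 406 (397 to 415) in cluster 3, and at 143, 297 and 73.2 in clusters 1, 2 and 4. Krt4 stood at 203 (197 to 209), against 79.2, 133 and 33.8. Together they took 6.09% of the cluster's UMIs, and the 10 most abundant genes took 13.1%. Krt6a and Krt16, keratins of wounded and of papillary epithelium, stood at 114 (109 to 119) and 77.2 (73.3 to 81.2). Mt4, the metallothionein of stratified squamous epithelium, stood at 90.8 (86.6 to 95.1), and Lgals7, which encodes galectin-7 of stratified epithelia, at 88.3 (84.1 to 92.6). The fatty acid binding protein gene Fabp5 (77.5), Fam25c (74.9), the keratinocyte differentiation gene Krtdap (72.4), the secreted protease inhibitor gene Slpi (72.1) and the calmodulin-like gene Calm4 (70.1) completed the first 12 with Lor. Of these 12, Fabp5 alone was higher in another cluster, with 105 UMIs per 10000 in cluster 2.

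**Figure D1:**
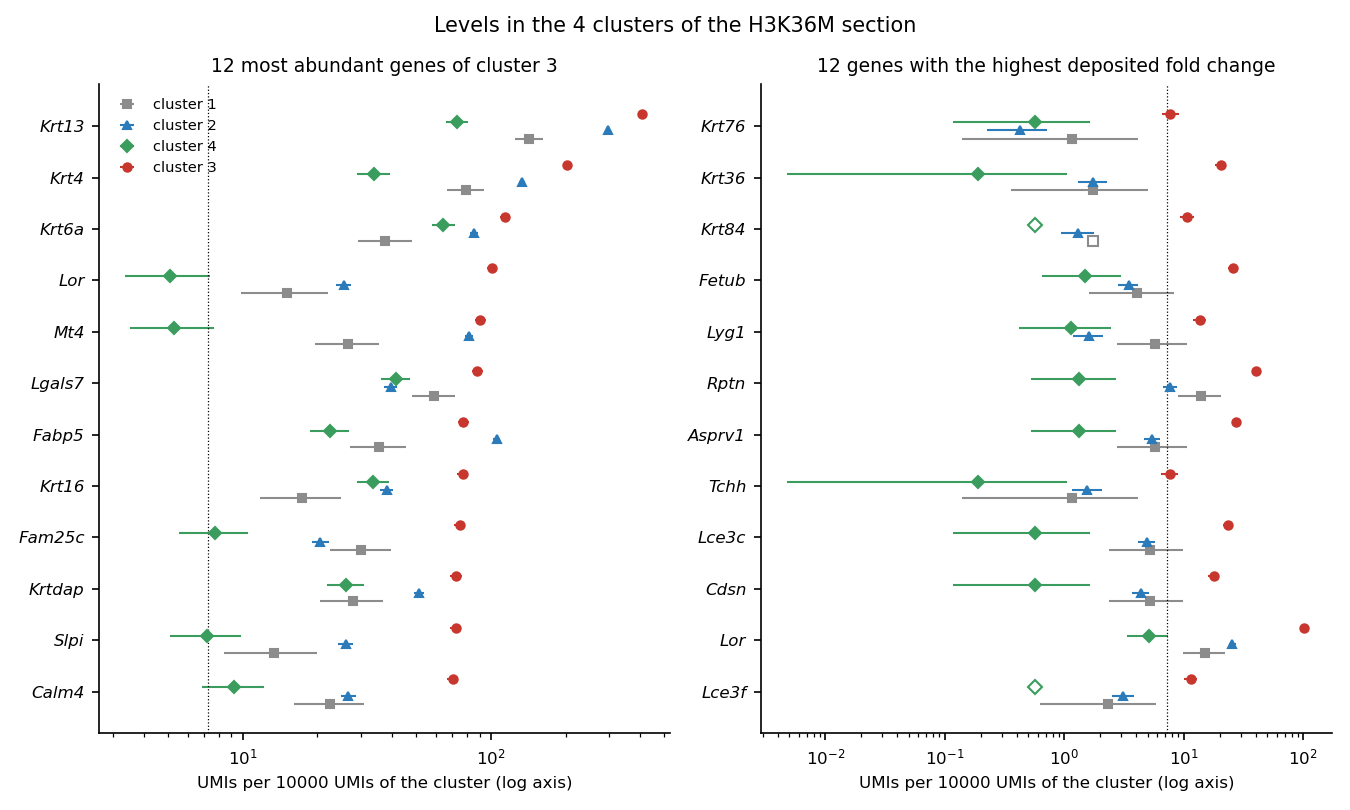
Levels of 12 abundant genes (left) and of the 12 genes with the highest deposited fold change (right) in the 4 clusters of the H3K36M section, in UMIs per 10000 on a log axis. Points are levels, bars are 95% Poisson intervals, open symbols mark 0 UMIs at the level of 3 UMIs, and the dotted line is the listing limit of 7.24. Cluster 3 lies above the other clusters for every gene shown except Fabp5.

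Ratios to the other clusters separated abundant genes from genes that set cluster 3 apart. At least 2-fold higher levels in cluster 3 were found for 73 of 296 genes against cluster 1 (24.7%), for 45 of 298 against cluster 2 (15.1%) and for 70 of 298 against cluster 4 (23.5%). At least 2-fold lower levels were found for 46 (15.5%), 32 (10.7%) and 52 genes (17.4%). These comparisons share cluster 3. With ribosomal and mitochondrially encoded genes left out of the totals, the split against cluster 2 became 38 higher and 44 lower, as all log2 ratios moved by -0.16. Against each of the other clusters, 37 genes (12.4%) were at least 2-fold higher and 8 genes (2.68%) at least 2-fold lower. Of the 37, 27 had been listed through cluster 3 alone. The 10 that reached the limit elsewhere too were Lor, Krt16, Fam25c, Slpi, Calm4, Cnfn, Rptn, Klk10, Ada and Sbsn. Just inside the 2-fold limit were Krt16, Nkpd1 and Klk10, with a lowest ratio of 2.03, and just outside were Dsg1a at 1.996 and Bpifa5 at 1.96. The 37 were counted with all genes in the totals. With ribosomal and mitochondrially encoded genes left out, Krt16 and Klk10 were among those that fell under 2-fold against cluster 2. In the authors' deposited table, 70 genes were called higher in cluster 3 at a p-value under 0.05 (23.5%) and 103 lower (34.6%).

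**Figure D2:**
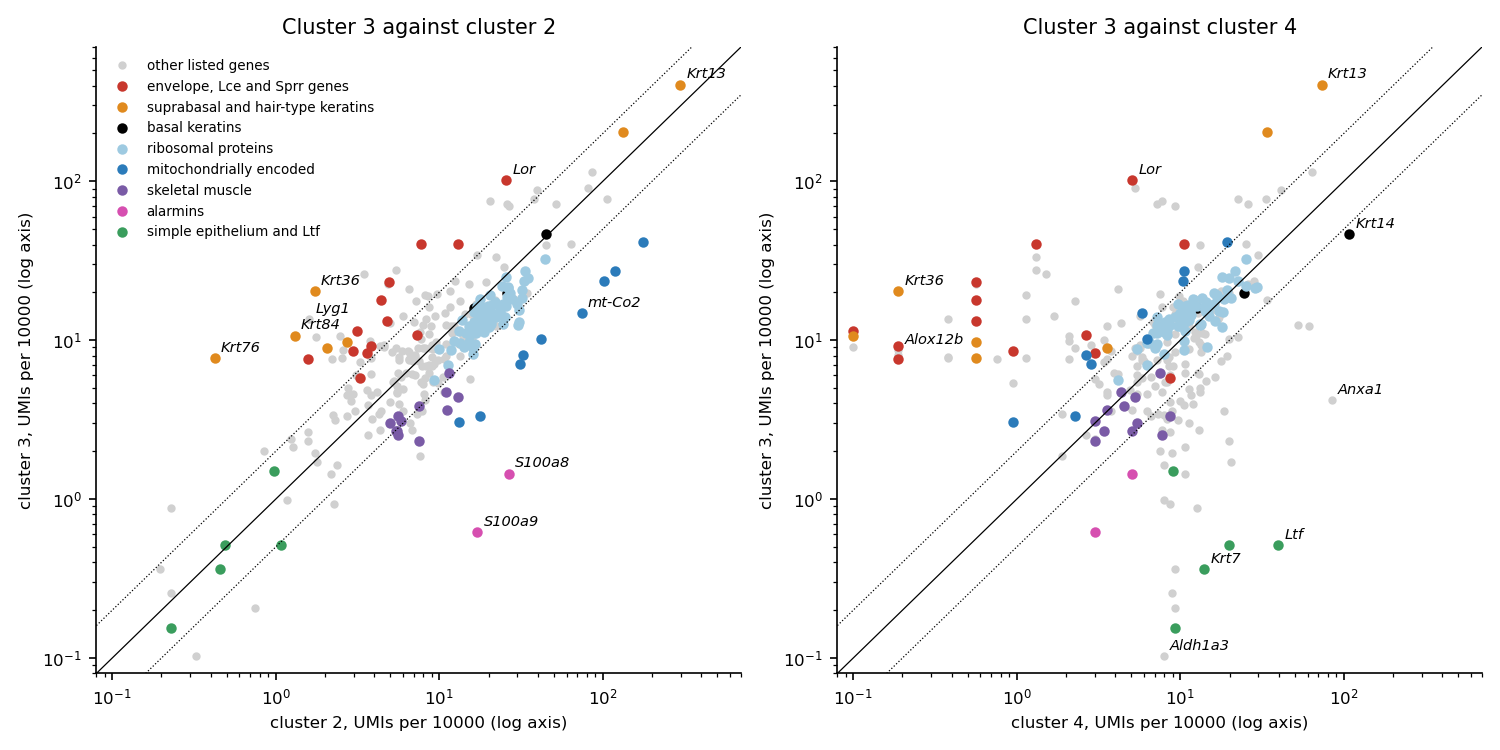
Level of each of the 298 listed genes in cluster 3 (vertical) against cluster 2 (left) and cluster 4 (right), in UMIs per 10000 on log axes. The solid line marks equal levels and the dotted lines a 2-fold difference, and the 3 genes with 0 UMIs in cluster 4 (Lce3f, Krt84 and Bpifa5) are drawn at 0.1. On the left, envelope genes and suprabasal and hair-type keratins lie above the line, and S100a8 and S100a9 lie far below it.

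Keratins differed from each other in how far they set cluster 3 apart. All 5 listed suprabasal mucosal keratins (Krt4, Krt13, Krt76, Krt78 and Krt80) were highest there, as were 74 of all 298 listed genes. All 5 were called higher in the authors' deposited table, beside 23.5% of all listed genes. They took 6.35% of UMIs (6.24 to 6.46) in cluster 3, against 2.33%, 4.36% and 1.12% in clusters 1, 2 and 4. The common keratins Krt13 and Krt4 were only 1.37-fold (1.33 to 1.41) and 1.52-fold (1.45 to 1.59) higher than in cluster 2. The rarer Krt76, Krt80 and Krt78 were 18.2-fold (10.3 to 35.1), 4.34-fold (3.24 to 5.89) and 3.54-fold (2.72 to 4.63) higher. Against cluster 4 the order was otherwise, since Krt13 was 5.55-fold (5.01 to 6.16) and Krt80 2.49-fold (1.55 to 4.24) higher in cluster 3. Of the 14 hair-type keratin genes fixed, Krt36 and Krt84 were listed, both through cluster 3 alone. Their share of 0.310% in cluster 3 compared with 0.0174%, 0.0303% and 0.00189% elsewhere. Krt76 and Krt78 had also been listed through cluster 3 alone. Krt36 had 395 of its 452 UMIs (87.4%) in the cluster.

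Wound keratins were split, and basal keratins were near or below their levels in cluster 2. Krt16 was 2.03-fold (1.88 to 2.19) higher than in cluster 2 and 2.30-fold (1.97 to 2.70) higher than in cluster 4. Its partner Krt6a was 1.33-fold (1.26 to 1.41) and 1.77-fold (1.58 to 1.99) higher. For Krt6b, 40.0 (37.2 to 42.9) in cluster 3 stood beside 45.2 in cluster 2. Krt17 stood at 23.7 (21.6 to 25.9), beside 12.5 in cluster 2 and 28.3 in cluster 4. The 4 genes are close relatives, so that reads of the pairs Krt6a and Krt6b or Krt16 and Krt17 may have been assigned between them. The basal keratin genes Krt14, Krt5 and Krt15 were present at 46.4 (43.4 to 49.5), 19.9 (17.9 to 21.9) and 15.9 (14.2 to 17.8). In cluster 2 they stood at 44.8, 25.9 and 16.4. Krt5 had a ratio to cluster 2 of 0.766 (0.676 to 0.866) and was called lower in the authors' deposited table. Krt15 was 1.86-fold (1.35 to 2.50) higher in cluster 1 than in cluster 3. Of 13 basal genes fixed, these 3 alone were listed. Differentiated and basal transcripts were thus recovered from the same group of spots. Krt14, whose promoter drives Cre, was 2.33-fold (2.09 to 2.59) higher in cluster 4 than in cluster 3.

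Precursor genes of the cornified envelope were higher in cluster 3. All 6 listed envelope precursor genes, of 14 fixed, were at least 2-fold higher than in each other cluster, beside 12.4% of all listed genes. All 6 were called higher in the authors' deposited table, beside 23.5% of all listed genes. Cdsn, Tchh and Ppl had been listed through cluster 3 alone. The share of UMIs of all 6 genes was 2.16% (2.10 to 2.23), against 0.463%, 0.558% and 0.207% in clusters 1, 2 and 4. Their median log2 ratio to cluster 2 was 2.01, beside -0.23 for all listed genes. Rptn stood at 40.3 (37.5 to 43.3), against 13.9, 7.70 and 1.32, and Cnfn, which encodes the envelope component cornifelin, at 40.6 (37.8 to 43.5), against 8.10, 13.02 and 10.6. Cdsn, which encodes the corneodesmosome protein corneodesmosin, stood at 17.8 (15.96 to 19.8), against 5.21, 4.37 and 0.566. Tchh, which encodes the filament-binding protein trichohyalin, was lower in level at 7.63 (6.45 to 8.97), against 1.16, 1.57 and 0.189, with 1 UMI in cluster 4. Ppl, which encodes the plakin periplakin, had the smallest ratio of the group, 2.33-fold (1.82 to 2.99) over cluster 2.

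Of 2 gene families of the envelope, the listed late cornified envelope genes were all higher in cluster 3, and the listed small proline-rich genes were split. All 4 listed late cornified envelope genes, Lce3a, Lce3b, Lce3c and Lce3f, were at least 2-fold higher in cluster 3 than in each other cluster, from 8.61 UMIs per 10000 for Lce3a to 23.4 for Lce3c. All 4 had been listed through cluster 3 alone, so that the rule of listing had already put them higher there. Lce3c had 3 UMIs in cluster 4 and Lce3f 0, so that Lce3f was at least 20.2-fold higher in cluster 3 at a floor of 3 UMIs. Of the 3 listed small proline-rich genes, Sprr1b stood at 9.13 (7.83 to 10.6), 2.39-fold (1.88 to 3.05) over cluster 2. Sprr3 stood at 10.8 (9.41 to 12.4), 1.48-fold (1.22 to 1.80) over cluster 2. Sprr1a stood at 5.78 (4.76 to 6.95), between 3.29 in cluster 2 and 8.67 in cluster 4. These families hold near-identical copies, which makes the values of single members uncertain. The cross-linking enzyme genes Tgm3 and Tgm1 stood at 33.4 (30.9 to 36.1) and 7.32 (6.17 to 8.63). Tgm3 was 1.49-fold (1.34 to 1.66) higher than in cluster 2, and Tgm1 2.22-fold (1.71 to 2.90). Many of these genes lie in the epidermal differentiation complex on chromosome 3. Between S100a10 and S100a13 (90514435 to 93564643, GRCm38), 19 genes were listed, of which 10 were at least 2-fold higher than in each other cluster. Over all listed genes this held for 37 of 298 (12.4%). Of the 10 in the interval, all but Lor and Rptn had been listed through cluster 3 alone. In the same interval S100a8, S100a9 and S100a10 were at least 2-fold lower than in each other cluster, against cluster 1 on few UMIs. Neighbours in the complex thus stood at both ends of the range.

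Proteases that act on shedding at the surface were higher in cluster 3, and their inhibitors were split. All 5 listed surface protease genes, of 22 fixed, were called higher in the authors' deposited table, beside 23.5% of all listed genes. They took 0.750% of UMIs, against 0.278%, 0.267% and 0.204% in clusters 1, 2 and 4. Asprv1, Klk14 and Klk8 had been listed through cluster 3 alone. The largest level was that of Asprv1, whose aspartic protease cuts profilaggrin, at 27.5 (25.2 to 29.97), against 5.78, 5.45 and 1.32. The kallikrein genes Klk10, Klk14 and Klk8 stood at 19.5, 14.2 and 7.68, from 2.03-fold (1.73 to 2.37, Klk10) to 3.02-fold (2.28 to 4.02, Klk8) over cluster 2. Klk13 departed from them, with 6.03 (4.99 to 7.23) in cluster 3 and 8.67 in cluster 4. Of the 7 listed inhibitor genes, 4 were called higher and 1 lower in the authors' deposited table, and 3 were at least 2-fold higher than in cluster 2. Over all listed genes, 23.5% were called higher, 34.6% lower, and 15.1% were at least 2-fold higher than in cluster 2. Slpi, which inhibits serine proteases of neutrophils, was 2.77-fold (2.54 to 3.03) higher than in cluster 2 and 10.1-fold (7.30 to 14.3) higher than in cluster 4, and Fetub 7.50-fold (6.07 to 9.34) and 17.2-fold (8.66 to 40.0). Spink5, whose product inhibits kallikreins, was nearly level with cluster 2, at 8.92 (7.64 to 10.4) beside 7.40. The cathepsin inhibitor gene Cstb was the exception to the group, 2.99-fold (2.11 to 4.23) higher in cluster 4 than in cluster 3.

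The listed antimicrobial genes were higher in cluster 3. Lipid genes and a mixed list of surface, secreted and calmodulin-like genes had exceptions. The lysozyme-type gene Lyg1 stood at 13.6 (12.02 to 15.4), against 5.78, 1.60 and 1.13 in clusters 1, 2 and 4, and 80.2% of its UMIs lay in cluster 3. The beta-defensin gene Defb4 stood at 9.13 (7.83 to 10.6) and Bpifa5, of the family of bactericidal permeability-increasing proteins, at 9.02 (7.74 to 10.5). Their levels in cluster 2 were 4.34 and 4.60. Lyg1 and Defb4 had been listed through cluster 3 alone. Among barrier lipid genes, Alox12b, which encodes a lipoxygenase of the lipid envelope, was 3.36-fold (2.56 to 4.45) and Elovl1, which lengthens very long fatty acids, 2.60-fold (2.06 to 3.31) higher than in cluster 2. For the lipid carriers Fabp5 and Gltp the ratios were 0.735 (0.691 to 0.782) and 1.16 (0.933 to 1.44). The mixed list joined genes of secreted, Ly6 family, other membrane and calmodulin-like proteins. Of its 10 listed genes, 9 were called higher in the authors' deposited table, beside 23.5% of all listed genes. Calm4 was the most abundant of them with Krtdap, at 70.1 (66.5 to 74.0) against 22.6, 26.6 and 9.24. Ecm1 and Emp1 were 2.17-fold (1.72 to 2.74) and 4.52-fold (2.89 to 7.13) higher in cluster 4 than in cluster 3, and Ly6d was nearly even between cluster 3 at 22.6 (20.5 to 24.8) and cluster 4 at 25.8.

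Junction, metal-binding and redox genes differed in direction from gene to gene. Of 6 listed desmosome genes, 5 were called higher in the authors' deposited table, beside 23.5% of all listed genes. Ratios to cluster 2 were 1.16 for Perp, 1.39 for Pkp1 and 1.74 for Jup, which encodes plakoglobin. Dsp, which encodes the linker desmoplakin, was the exception, at 10.6 (9.17 to 12.1) in cluster 3 and 13.9 in cluster 2. Mt4 was close to its level in cluster 2 (81.6) and 17.2-fold (11.9 to 26.0) above cluster 4. The common metallothionein genes Mt1 and Mt2 stood at 15.4 and 18.0, beside 19.6 and 28.4 in cluster 2. Of 8 antioxidant genes, 4 were called lower in the authors' deposited table and 0 higher, beside 34.6% of all listed genes called lower. Gsto1, a glutathione transferase gene, was 5.01-fold (4.22 to 5.94) higher in cluster 4 than in cluster 3. The listed regulators of differentiation, Klf4 and Pitx1, stood at 7.43 (6.26 to 8.74) and 6.14 (5.08 to 7.34), beside 6.92 and 3.82 in cluster 2. The 5 glycolysis genes had a median log2 ratio of 0.02 to cluster 2.

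**Figure D3:**
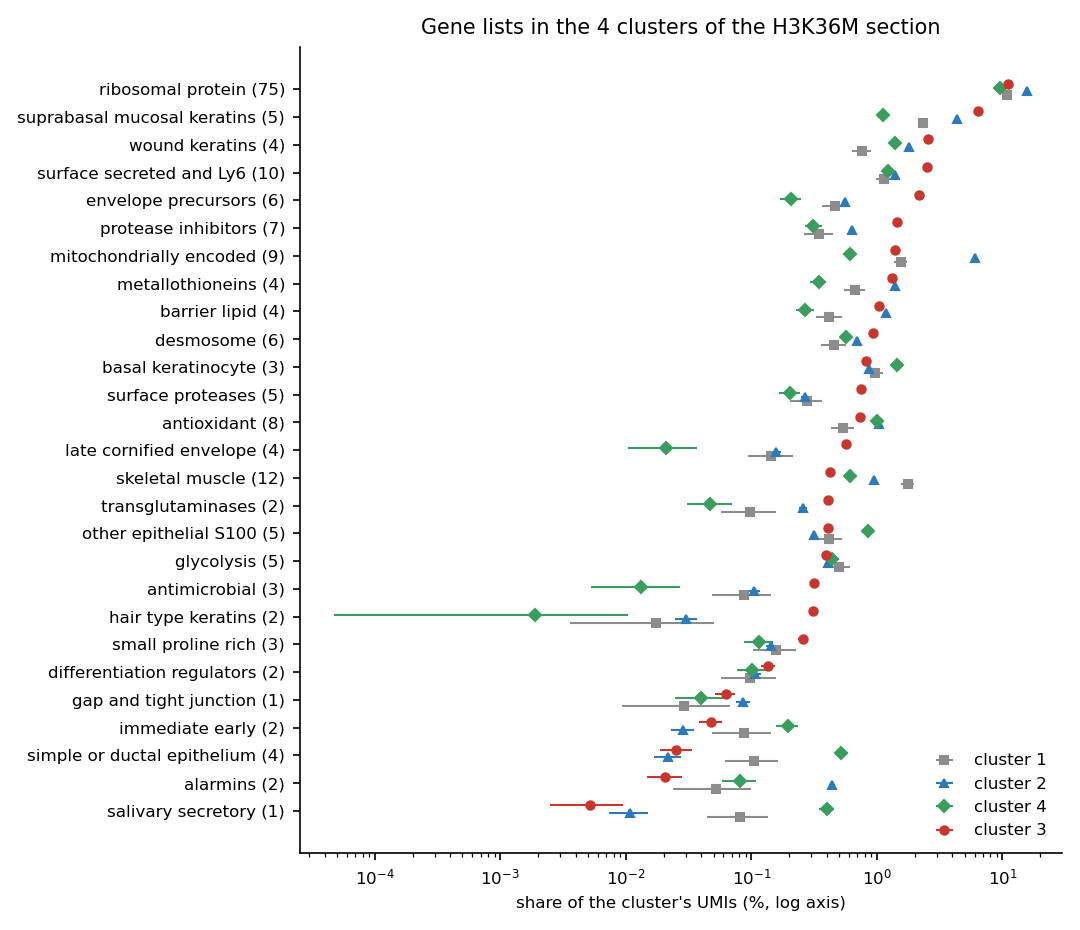
Share of each cluster's UMIs taken by the listed members of each gene list, in percent on a log axis, with the number of listed genes in brackets. Points are shares and bars are exact binomial 95% intervals. Envelope precursors reach 2.16% in cluster 3, and mitochondrially encoded genes 6.09% in cluster 2 and 1.38% in cluster 3.

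Of the 104 genes outside every list, 17 were highest in cluster 3, a smaller share than the 74 of all 298 genes. Among these 17, the most abundant after Lgals7 and Fam25c was Sfn, which encodes the cell cycle regulator stratifin of stratified epithelia. Sfn stood at 34.6 (32.0 to 37.3), against 27.2, 17.1 and 29.8 in clusters 1, 2 and 4. Sfn, the heat shock gene Hspb1 and the desmosome gene Pkp3 were at least 2-fold higher against cluster 2 alone. Sfn and Hspb1 fell under 2-fold with ribosomal and mitochondrially encoded genes left out of the totals. At least 2-fold lower against cluster 2 alone were 8 genes, mt-Nd2, mt-Cytb and Txn1 among them. Crct1, a gene of the epidermal differentiation complex, stood at 21.1 (19.1 to 23.2), against 5.78, 6.52 and 4.15. Ada, which encodes adenosine deaminase, an enzyme abundant in the keratinised upper digestive tract of mice, stood at 19.3 (17.4 to 21.3), against 8.68, 8.22 and 1.13. Nkpd1 and Vsig8 were rarer, at 10.6 (9.17 to 12.1) and 7.58 (6.40 to 8.91), and were 4.26-fold (3.26 to 5.62) and 3.42-fold (2.55 to 4.63) higher than in cluster 2. Another 19 genes were at least 2-fold higher against clusters 1 and 4 and not against cluster 2, Krt13, Krt4, Mt4, Krtdap and Tgm3 among them. In the lower direction this also held for 19 genes, among them Anxa1, Anxa2, Krt7 and the histocompatibility genes H2-K1 and H2-D1. Levels of 132 genes lay within 2-fold of all 3 other clusters.

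In the authors' deposited table, which sets a cluster against the other spots, the highest log2 fold changes of cluster 3 were 3.94 for Krt76, 3.73 for Krt36, 3.30 for Krt84 and 2.96 for Lyg1, with Fetub between the last pair. Rptn, Asprv1, Tchh, Lce3c, Cdsn, Lor and Lce3f followed, from 2.50 to 2.10, with genes known only by a predicted symbol left out. The lowest values in the authors' deposited table were -4.44 for S100a9, -3.91 for S100a8, -3.60 for Ltf and -3.27 for the retinal dehydrogenase gene Aldh1a3. S100a8 and S100a9 were highest in cluster 2, and Ltf and Aldh1a3 in cluster 4.

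Alarmin transcripts were lower in cluster 3 than in clusters 2 and 4, and mitochondrial transcripts were lower than in cluster 2. S100a8 and S100a9 encode the subunits of calprotectin, which neutrophils and stressed keratinocytes make. S100a8 (chromosome 3, 90668978 to 90670035) had 28 UMIs or 1.44 per 10000 (0.959 to 2.09) in cluster 3, against 3.47, 26.5 and 5.09 in clusters 1, 2 and 4. S100a9 had 12 UMIs or 0.619 per 10000 (0.320 to 1.08), against 1.74, 17.1 and 3.02. Cluster 2 was thus 18.4-fold (12.6 to 27.8) and 27.7-fold (15.7 to 53.9) higher, while cluster 1 gave 6 and 3 UMIs. Together the 2 genes took 0.0206% of UMIs (0.0147 to 0.0281) in cluster 3 and 0.0521% (0.0238 to 0.0988) in cluster 1. The share in cluster 1 rests on 9 UMIs and that in cluster 3 on 40. These intervals overlapped, which does not settle whether the difference from cluster 1 exceeds counting error. All 9 mitochondrially encoded genes were at least 2-fold lower than in cluster 2, and 7 of the 9 were at least 2-fold higher than in cluster 4. Over all listed genes these shares were 10.7% and 23.5%. For mt-Co1, which encodes a subunit of cytochrome oxidase, the levels were 41.2 (38.4 to 44.2) in cluster 3 and 31.2, 176 and 19.2 in clusters 1, 2 and 4. Of 75 ribosomal protein genes, 38 were called lower in the authors' deposited table and 0 higher, beside 103 of all 298 genes (34.6%) called lower. Their share was 11.2% (11.03 to 11.3) in cluster 3, against 10.9%, 15.7% and 9.55%. The mitochondrial and ribosomal shares of clusters 1 and 4 were thus near to or below those of cluster 3, and cluster 2 was the high one.

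Markers of other tissues were low but not absent. The 12 listed skeletal muscle genes, of 30 fixed, took 0.425% of UMIs (0.396 to 0.455) in cluster 3, against 1.76%, 0.945% and 0.617% in clusters 1, 2 and 4. All 12 were detected there, from 2.32 UMIs per 10000 for Tnnc2 to 6.19 (5.13 to 7.40) for the myoglobin gene Mb. The fast myosin gene Myh4 was 5.53-fold (3.58 to 8.40) higher in cluster 1. Of 14 genes fixed for simple or ductal epithelium, 4 were listed, namely Krt7, Krt19, Psca and Cldn4. These 4 took 0.0253% (0.0187 to 0.0334), beside 0.0215% in cluster 2 and 0.522% in cluster 4. Krt7 had 7 UMIs in cluster 3 and Krt19 had 3. Of 14 genes fixed for salivary secretion, only 1 was listed, Ltf, which encodes lactoferrin. Ltf had 10 UMIs, and cluster 4 was 77.2-fold (41.1 to 163) higher. Anxa1, which encodes the lipid-binding annexin A1, was also low, at 4.18 (3.32 to 5.19), with 12.7, 8.16 and 84.7 in clusters 1, 2 and 4. The lists for fibroblasts, endothelium, lymphocytes, neutrophils, macrophages, red cells, taste buds and proliferation had 0 listed genes, which says only that each of their genes was under the listing limit or not listed. The part of these other cells in the differences above was not tested.

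Set beside the WT section, cluster 3 was compared with WT cluster 1, where Lor, Krt36 and Krt84 were also higher than in the other WT clusters. WT cluster 1 was picked for these genes, so that their levels there are a description. The tables were normalised separately and hold 1 animal each, so that genotype, depth and tissue sampled cannot be told apart. Of the 284 genes in both tables, 21 (7.39%) were at least 2-fold higher in H3K36M cluster 3 and 27 (9.51%) at least 2-fold lower. With totals taken over these 284 genes alone, the split was 42 higher and 23 lower, as all log2 ratios moved by 0.22. Krt13 had 406 UMIs per 10000 in each, and Krt36 and Krt84 had 20.4 beside 22.2 and 10.7 beside 9.69. Other keratins differed more. Krt4 was 1.49-fold (1.44 to 1.55) higher in H3K36M cluster 3, whereas Krt6a was 1.47-fold (1.41 to 1.54), Krt16 1.75-fold (1.66 to 1.85), Krt14 1.77-fold (1.66 to 1.90) and Krt6b 4.14-fold (3.85 to 4.46) higher in WT cluster 1. Lor stood at 101 in cluster 3 and 147 (145 to 150) in WT cluster 1.

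The genes farthest below their WT level were S100a9 and S100a8. S100a8 had 1.44 UMIs per 10000 in cluster 3 and 202 (199 to 205) in WT cluster 1, with 154 and 99.3 in WT clusters 2 and 3, so that all 3 WT clusters stood above cluster 3. S100a9 had 0.619 and 116 (114 to 119). Anxa1 was 11.2-fold (8.97 to 14.1) and the envelope gene Sprr1a 6.92-fold (5.74 to 8.43) higher in WT cluster 1. All 3 shared small proline-rich genes and 3 of 4 shared late cornified envelope genes were at least 2-fold higher in WT cluster 1, as were the wound keratin genes Krt6b and Krt17. Over all 284 shared genes this held for 27 (9.51%), and for 23 with totals over the shared genes alone. Krt17, at 2.22-fold (2.01 to 2.45), fell under 2-fold with the latter totals. At the other end, the basal keratin gene Krt15 stood at 15.9 in cluster 3 and 2.52 (2.20 to 2.88) in WT cluster 1, a ratio of 6.30 (5.27 to 7.53). Aopep and the nucleolin gene Ncl were also higher in cluster 3, at ratios of 3.33 and 3.22.

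Genes not listed for the H3K36M section give a further bound, if its table lists every gene over its limit, which could not be checked. In WT cluster 1, 220 genes reached 7.24 UMIs per 10000, and 33 of them were not listed for the H3K36M section. These 33 included 6 of 9 small proline-rich genes, 6 of 10 late cornified envelope genes and all 3 keratin-associated protein genes that reached the limit, and 0 of 2 hair-type keratin genes. The highest were Sprr2i at 39.2, Sprr2d at 31.2 and Sprr2b at 29.2 UMIs per 10000 in WT cluster 1, named because they were the largest after their values were seen.

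**Figure D4:**
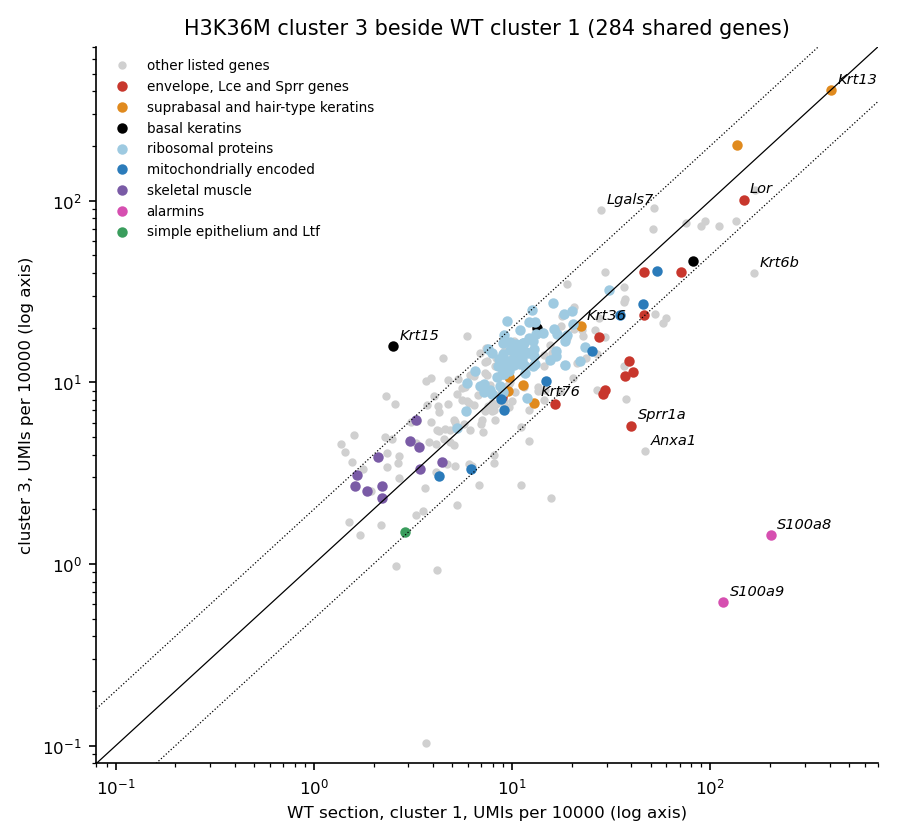
Level of each of the 284 shared genes in H3K36M cluster 3 (vertical) beside WT cluster 1 (horizontal), in UMIs per 10000 on log axes, 1 section each. The solid line marks equal levels and the dotted lines a 2-fold difference. Krt13 lies on the line, Krt15 lies above it, and S100a8 and S100a9 lie at 1.44 and 0.619 against 202 and 116.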

How the data were processed

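Visium libraries of 1 H3K36M and 1 WT tongue section were used, grouped by their titles. Space Ranger and the build GRCm38 (mm10) are named per the submitters' processing notes; the sources used here do not give its version. Clusters were graph-based per the names of the deposited tables, with no settings given. Deposited metrics hold counts of spots, reads and genes, signal values per spot, and fractions, printed as percent. For every gene the deposited cluster tables hold, per the file headers, an average in each cluster (used as a score, with no fixed unit), the log2 fold change and its p-value. The headers name neither the reference of the fold change nor any adjustment of the p-value.

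The averages of a cluster were whole multiples of 1 step, within 0.01, and the deposited log2 fold changes were returned by UMI counts with 1 added to counts and to summed size factors. The smallest multiple of 0.5 that made all cluster totals whole, 1380.5 in the H3K36M and 5027 in the WT section, was taken as the median UMIs of the clustered spots. These medians differ from those in the metrics, so that the grouped spots were another set or the metrics came from another run. Levels rest on this reading; ratios between clusters of 1 section do not.

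Intervals are exact (Poisson, binomial, or conditional for ratios) at 95%, and 0 UMIs were taken as 3 for bounds. A ratio was not formed where both sides had 3 UMIs or fewer. The calculation was tested on simulated tables. Members and the 36 gene lists were chosen with earlier results of these data known. The named genes were the 12 most abundant without ribosomal and mitochondrial genes, the 12 highest and 8 lowest deposited fold changes at p under 0.05 without predicted genes, the markers, up to 4 genes per list by level, and the 4 highest and lowest ratios in each comparison with at least 10 UMIs. Genes outside this rule, namely Ppl, Tnnc2, Spink5, Klk13, Cstb, Nkpd1, Ada, Sbsn, Dsg1a, S100a10, Myh4, Sfn, Hspb1, Pkp3, Crct1, Vsig8, Ecm1, Emp1, Txn1, Anxa2, H2-K1, H2-D1 and mt-Cytb, were named after their values were seen. Positions are from GENCODE on GRCm38, which matched all 298 identifiers, 297 by the same symbol, and promoters from RefSeq, first start listed per gene. Of the genes named, Slpi, Rptn, Pitx1, Ncl, Aopep and mt-Nd2 share exon sequence with another annotated gene. A result on 1 gene is not reported here. Python 3.11 with numpy, pandas, scipy and matplotlib was used.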

Additional observations from a re-analysis of the deposited data

How the results depend on the processing

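Which genes stood out depended mainly on the fold required. Main counts at 2-fold, higher and lower, were 73 and 46 against cluster 1, 45 and 32 against cluster 2, and 70 and 52 against cluster 4. At 4-fold they were 25 and 15, 14 and 12, and 42 and 24. At 1.5-fold the counts that moved by over 1.5 times were 74 lower against cluster 1, 68 higher and 76 lower against cluster 2, and 106 higher against cluster 4. A deposited log2 fold change of at least 1 left 43 called higher and 39 lower. Without ribosomal and mitochondrial genes in the total, the shares in cluster 3 became 7.26% for suprabasal keratins, 2.47% for envelope precursors and 0.486% for muscle, by construction. With totals over shared genes, 42 genes were higher than in WT cluster 1. Other alternatives (at least 20 UMIs, p under 0.01) left counts within 1.5 times. Depth limits cluster 1 most, where 3 UMIs stand for 1.74 per 10000. No paired analysis was possible because each genotype had 1 section.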
